A study of Rattus norvegicus with 23 samples.

Results

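Hmox1, Blvra, Nqo1, Gclc, Gclm and Txnrd1, which encode enzymes of heme degradation and targets of the transcription factor Nrf2, were followed in rat kidney. They were picked by gene symbol, from probe sets of an Affymetrix array that carry exactly 1 symbol, and make up 6 of the 14217 genes measured. Each gene is given by its brightest probe set on average. Gclc and Txnrd1 each had a second probe set, and Hmox1, Blvra, Nqo1 and Gclm had 1 each.

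Heme oxygenase splits heme into biliverdin, iron and carbon monoxide, and biliverdin reductase turns biliverdin into bilirubin. Nrf2, encoded by Nfe2l2, is held in the cytoplasm by Keap1 until electrophiles or oxidants release it, and it then binds antioxidant response elements near genes of glutathione synthesis, thioredoxin reduction, quinone reduction and heme degradation. In kidney, heme oxygenase 1 is known as an enzyme that tubule cells induce when heme, oxidants or filtered protein reach them.

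The kidneys came from male rats of the SBH/y and SBN/y strains, known as the hypertension-prone and the hypertension-resistant line of the Sabra rat. Rats of each strain lost 1 kidney (1K) or had a sham operation and kept 2 kidneys (2K), and the kidneys were taken at an age of 4 months, 3 months after surgery. The groups held 6 SBH/y 1K, 6 SBH/y 2K, 6 SBN/y 1K and 5 SBN/y 2K arrays, 23 in all. No allele, transgene or drug is named for any group, all rats ate standard chow, and the series is titled as a study of proteinuria.

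The values are log2 values made with RMA, which gives all arrays nearly the same distribution. They ran from 1.89 to 13.67, and the array medians lay between 4.65 and 4.69. The 4 probe sets of Xist, which a male kidney should not express, lay between 2.14 and 3.13 and show the level of an unexpressed gene. All 16 proximal tubule markers were above the median probe set (4.67). The means of these 16 markers lay between 10.10 and 10.35 in SBH/y 1K arrays, 10.17 and 10.28 in SBH/y 2K arrays, 10.11 and 10.23 in SBN/y 1K arrays, and 10.12 and 10.23 in SBN/y 2K arrays. The 3′ minus 5′ signal of the GAPDH control, a measure of RNA quality that is higher in more degraded RNA, averaged 0.53 ± 0.11 in SBH/y 1K, 0.46 ± 0.06 in SBH/y 2K, 0.45 ± 0.04 in SBN/y 1K and 0.35 ± 0.03 in SBN/y 2K (log2, SD). It thus moved with both strain and kidney number. On the second principal component, SBH/y 1K replicate 2 and SBH/y 2K replicate 3 stood at opposite ends, apart from the other arrays, and a fit without both is given where it changes a call.

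Promoters are shown because the 6 genes are grouped by a factor that binds DNA. RefSeq promoter windows of the GRCr8 assembly, from 250 bases before to 50 bases after a gene's start, were found for 5 of the 6 genes (Blvra, Nqo1, Gclc, Gclm and Txnrd1), with 2 windows for Txnrd1. The core of the antioxidant response element, TGACNNNGC on either strand, was present in 3 of these 6 windows, against 12.1% of all 33469 promoter windows of this length. The windows with a match are printed 5′ to 3′ on the gene's strand, with the core in capitals. All 3 cores lie on the opposite strand and therefore read GCNNNGTCA here. The Blvra window is chr3:134802660-134802959 on the plus strand, with the first printed base of the core 145 bases before the start.
Blvra: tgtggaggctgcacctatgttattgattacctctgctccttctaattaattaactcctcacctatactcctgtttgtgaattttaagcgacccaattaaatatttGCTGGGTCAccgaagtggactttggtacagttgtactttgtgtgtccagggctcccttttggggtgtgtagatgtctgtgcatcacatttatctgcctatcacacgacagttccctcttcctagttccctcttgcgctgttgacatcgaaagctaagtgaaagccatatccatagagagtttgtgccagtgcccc
The Gclm window is chr2:213031885-213032184 on the plus strand, with the first printed base of the core 172 bases before it.
Gclm: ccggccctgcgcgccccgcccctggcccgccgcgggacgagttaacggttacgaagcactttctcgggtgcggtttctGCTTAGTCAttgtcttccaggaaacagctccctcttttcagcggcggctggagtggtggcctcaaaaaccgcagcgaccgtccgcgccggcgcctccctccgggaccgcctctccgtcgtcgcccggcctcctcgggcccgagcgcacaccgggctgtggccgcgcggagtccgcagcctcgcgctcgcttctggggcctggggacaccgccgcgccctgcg
The second Txnrd1 window is chr7:22755855-22756154 on the minus strand, with the first printed base of the core 78 bases before it.
Txnrd1: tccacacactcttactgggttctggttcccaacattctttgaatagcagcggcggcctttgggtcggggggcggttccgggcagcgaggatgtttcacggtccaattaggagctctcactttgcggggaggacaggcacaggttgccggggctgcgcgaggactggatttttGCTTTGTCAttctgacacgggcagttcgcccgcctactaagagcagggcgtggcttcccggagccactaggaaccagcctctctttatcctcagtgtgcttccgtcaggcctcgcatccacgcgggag
The letters TGACNNNGC were not in the windows of Nqo1 and Gclc or in the first window of Txnrd1. An AP-1 site (TGANTCA, 7.33% of all windows) and an E-box (CACGTG, 6.42%) were in 0 of the 6 windows on either strand. These matches describe letters in the windows and say nothing of binding.

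Removal of a kidney in SBH/y rats was followed by a higher value of Hmox1 and lower values of Blvra and Gclc in the remaining kidney. These were 3 of the 6 genes, 1 higher and 2 lower, while 7.16% of all genes passed the same test (limma, adjusted p under 0.05, two-sided), 4.76% as higher and 2.4% as lower. In SBN/y rats only Hmox1 passed, and it rose there as well, while 0.253% of all genes did, 0.155% as higher and 0.0985% as lower. The response of the SBH/y kidney minus that of the SBN/y kidney lay below 0 for all 6 genes, but limma called 0 of them at an adjusted p under 0.05 and 1, Gclc, at an unadjusted p under 0.05, while 0.408% of all genes passed, 0.331% above 0 and 0.0774% below. Between the strains, Blvra was higher in SBH/y with either kidney number. With 1 kidney, 3 of the 6 passed, Blvra as higher and Gclc and Gclm as lower, while 17.7% of all genes passed, 10.2% as higher and 7.48% as lower. With 2 kidneys, 2 of the 6 passed, Hmox1 and Blvra, both as higher, while 11% of all genes passed, 5.5% as higher and 5.54% as lower.

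**Figure D1:**
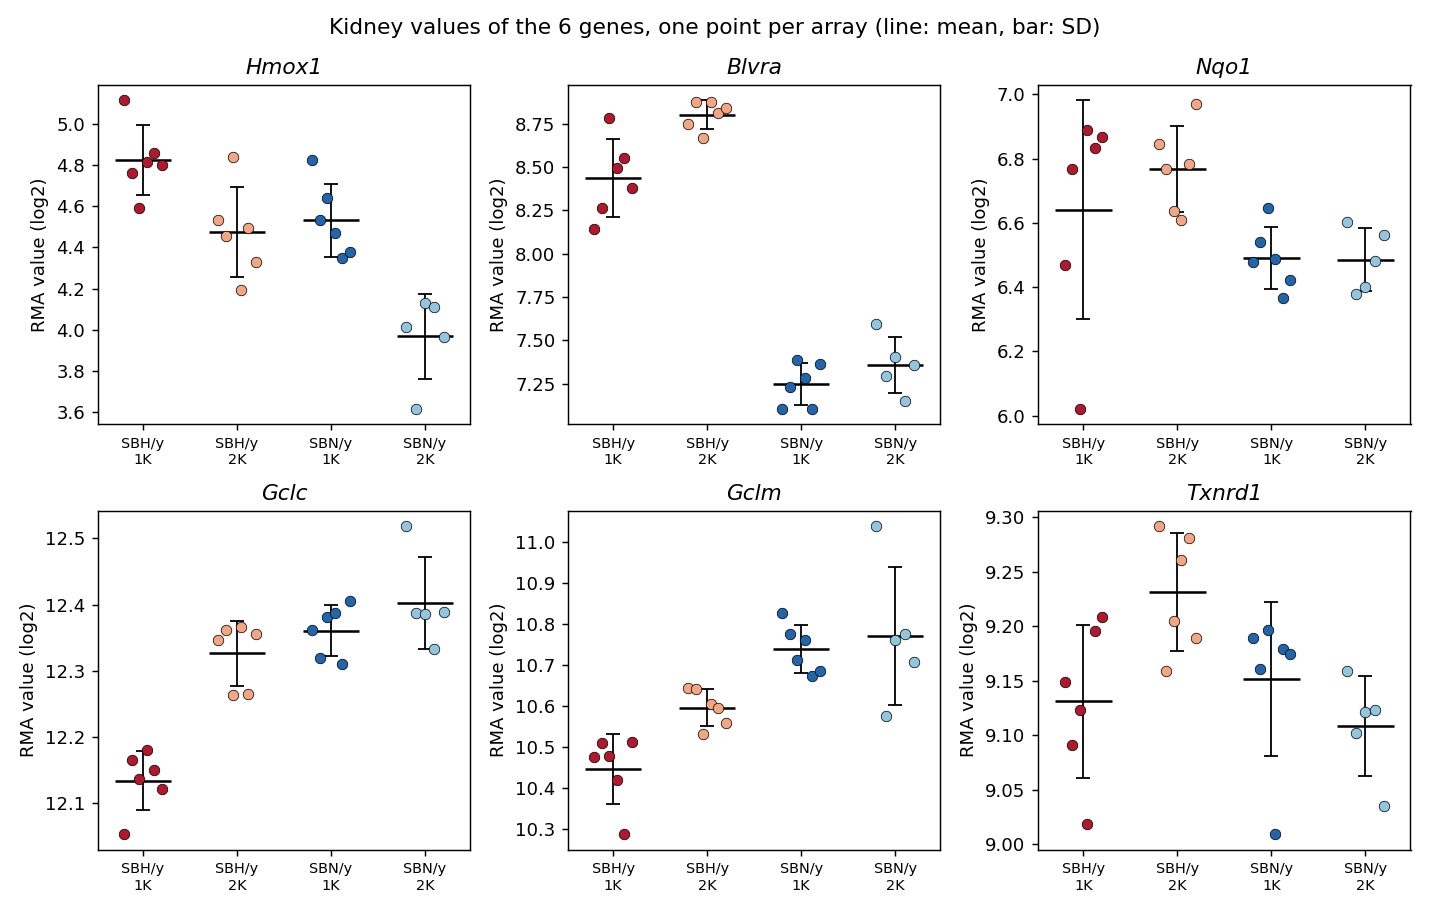
Log2 RMA values of Hmox1, Blvra, Nqo1, Gclc, Gclm and Txnrd1 on the y axes, in the 4 groups on the x axes, with 1 point per array, a line at the mean and a bar for the SD. Blvra parts the strains without overlap, Hmox1 is lowest in SBN/y 2K, and Gclc is lowest in SBH/y 1K.

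Hmox1 encodes heme oxygenase 1, the inducible enzyme that opens the heme ring. Its values were 4.59 to 5.11 in SBH/y 1K (median 4.81), 4.19 to 4.84 in SBH/y 2K (median 4.47) and 4.35 to 4.82 in SBN/y 1K (median 4.50). In SBN/y 2K they were 4.01, 3.62, 4.13, 4.11 and 3.97. All 5 SBN/y 2K arrays lay below every array of the other groups, and the other 3 groups overlapped.

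Hmox1 was higher in SBN/y 1K than in SBN/y 2K by 0.56 ± 0.11 log2 (SE, 1.48-fold, adjusted p = 0.0176), without overlap of the groups, which 1.65% of all genes showed. In SBH/y it was higher with 1 kidney than with 2 by 0.35 ± 0.10 (1.27-fold, adjusted p = 0.0436), with overlap through SBH/y 2K replicate 3, whose value was 4.84. The SBH/y response minus the SBN/y response was -0.21 ± 0.15 (adjusted p = 0.789). With 2 kidneys SBH/y exceeded SBN/y by 0.51 ± 0.11 (1.42-fold, adjusted p = 0.00170), without overlap, which 9.72% of all genes showed. With 1 kidney the difference was 0.29 ± 0.10, and it missed the threshold (adjusted p = 0.0569). From high to low the means were 4.82 ± 0.17 in SBH/y 1K, 4.53 ± 0.18 in SBN/y 1K, 4.47 ± 0.22 in SBH/y 2K and 3.97 ± 0.21 in SBN/y 2K (SD), and the middle pair lay within their spread.

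Hmox1 was a dim probe set, near the median probe set of 4.67 and above the Xist range, so folds may be understated. The call in SBH/y was lost in 12 of 23 fits that left out 1 array: each SBH/y array except replicate 3 of 1K and of 2K, SBN/y 2K replicate 5 and SBN/y 1K replicate 2. Over all 23 fits the difference was 0.29 to 0.42 and the adjusted p lay between 0.00940 and 0.143. It was also lost with only the groups compared (adjusted p = 0.0665) and with the GAPDH signal as a covariate (0.115). The call in SBN/y was lost without SBN/y 2K replicate 2 (adjusted p = 0.0789), SBN/y 1K replicate 1 (0.0602) or SBN/y 1K replicate 3 (0.0617), and with the covariate (0.54, adjusted p = 0.0681).

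Blvra encodes biliverdin reductase A, the step after heme oxygenase. Its values were 8.14 to 8.78 in SBH/y 1K (median 8.44), 8.67 to 8.88 in SBH/y 2K (median 8.83) and 7.11 to 7.39 in SBN/y 1K (median 7.26). In SBN/y 2K they were 7.59, 7.29, 7.40, 7.15 and 7.36. The lowest SBH/y array thus lay above the highest SBN/y array.

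Blvra was higher in SBH/y than in SBN/y by 1.19 ± 0.09 log2 with 1 kidney (SE, 2.28-fold, adjusted p = 3.63e-11), without overlap, which 9.81% of all genes showed. With 2 kidneys the difference was 1.44 ± 0.09 (2.71-fold, adjusted p = 2.38e-12), again without overlap. Within SBH/y, 1K minus 2K was -0.37 ± 0.09 (0.776-fold, adjusted p = 0.00890), and the groups overlapped because SBH/y 1K replicate 3 reached 8.78. The SBH/y 1K arrays also spread more widely, with an SD of 0.23, against 0.08 in SBH/y 2K.

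In SBN/y the difference between 1K and 2K was -0.11 ± 0.09 (adjusted p = 0.877). The difference of the responses was -0.25 ± 0.12 (adjusted p = 0.619), so a smaller response in SBN/y was not shown. From high to low, the order of the means was SBH/y 2K (8.80), SBH/y 1K (8.43), SBN/y 2K (7.36) and SBN/y 1K (7.25), and the SBN/y groups were the neighbours that lay within their spread. Blvra had no second probe set to check it, and whether the strains differ in sequence under its probes was not tested. With the GAPDH signal as a covariate, the fall in SBH/y was -0.30 ± 0.09 and lost its call (adjusted p = 0.0570).

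Nqo1 encodes an enzyme that reduces quinones with NAD(P)H and is a classical Nrf2 target. Its values were 6.02 to 6.89 in SBH/y 1K (median 6.80), 6.61 to 6.97 in SBH/y 2K (median 6.77) and 6.37 to 6.65 in SBN/y 1K (median 6.48). In SBN/y 2K they were 6.60, 6.38, 6.40, 6.48 and 6.56. All 6 SBH/y 2K arrays lay above all 5 SBN/y 2K arrays, whereas the SBH/y 1K arrays reached below every other array because replicate 3 stood at 6.02. The strains with 2 kidneys did not overlap for 9.72% of all genes.

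None of the 5 tests on Nqo1 passed. SBH/y minus SBN/y was 0.28 ± 0.11 with 2 kidneys (adjusted p = 0.122) and 0.15 ± 0.10 with 1 (adjusted p = 0.436). The difference between 1K and 2K was -0.13 ± 0.10 in SBH/y (adjusted p = 0.638) and 0.01 ± 0.11 in SBN/y (adjusted p = 0.997). Without SBH/y 1K replicate 3, SBH/y minus SBN/y was 0.27 with 1 kidney (adjusted p = 0.0141) and 0.28 with 2 (adjusted p = 0.0153). That array is in neither 2K group. With 2 kidneys the difference therefore stayed the same, and only its SE, from the spread shared by all groups, fell from 0.11 to 0.08. With only the groups compared, the 2-kidney difference passed as well (adjusted p = 0.0200).

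Gclc and Gclm encode the catalytic and the modifier subunit of glutamate-cysteine ligase, the rate-limiting enzyme of glutathione synthesis. Both had their lowest mean in SBH/y 1K, next SBH/y 2K, next SBN/y 1K, and their highest mean in SBN/y 2K.

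Gclc had values of 12.05 to 12.18 in SBH/y 1K (median 12.14), 12.26 to 12.37 in SBH/y 2K (median 12.35) and 12.31 to 12.41 in SBN/y 1K (median 12.37). In SBN/y 2K the values were 12.52, 12.39, 12.39, 12.33 and 12.39. All 6 SBH/y 1K arrays lay below all 17 other arrays, and the other groups overlapped.

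In SBH/y the 1K minus 2K difference of Gclc was -0.19 ± 0.04 log2 (0.875-fold, adjusted p = 0.00875), and the groups did not overlap, as was so for 4.31% of all genes. With 1 kidney SBH/y minus SBN/y was -0.23 ± 0.04 (0.854-fold, adjusted p = 0.000555), again without overlap. In SBN/y the 1K minus 2K difference was -0.04 ± 0.05 (adjusted p = 0.936), and with 2 kidneys the strain difference was -0.08 ± 0.05 (adjusted p = 0.418).

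The second Gclc probe set gave larger differences in the same comparisons, -0.35 ± 0.06 for 1K minus 2K in SBH/y (adjusted p = 0.000175) and -0.39 ± 0.06 for SBH/y minus SBN/y with 1 kidney (adjusted p = 7.16e-06). Its values were 11.71 to 12.00 in SBH/y 1K, 12.17 to 12.29 in SBH/y 2K, 12.19 to 12.36 in SBN/y 1K and 12.26 to 12.41 in SBN/y 2K. SBH/y 1K again lay below all other arrays. The difference of the responses was -0.15 ± 0.07 on the first probe set (adjusted p = 0.532) and -0.29 ± 0.08 on the second (adjusted p = 0.150), so neither showed that the strains responded differently.

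Gclm had values of 10.29 to 10.51 in SBH/y 1K (median 10.48), 10.53 to 10.64 in SBH/y 2K (median 10.60) and 10.67 to 10.83 in SBN/y 1K (median 10.74). In SBN/y 2K they were 11.04, 10.58, 10.76, 10.78 and 10.71. SBH/y 1K lay below every other array, and SBN/y 2K held both the highest value and, in replicate 2, a value inside the SBH/y 2K range.

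With 1 kidney, SBH/y minus SBN/y was -0.29 ± 0.06 for Gclm (0.817-fold, adjusted p = 0.000920), without overlap, which 9.81% of all genes showed. With 2 kidneys it was -0.18 ± 0.06, which missed the threshold (adjusted p = 0.0913) and passed it without SBN/y 2K replicate 2 (-0.22, adjusted p = 0.0224). The 1K minus 2K difference was -0.15 ± 0.06 in SBH/y, where the groups did not overlap but the test was not passed (adjusted p = 0.195), and -0.03 ± 0.06 in SBN/y (adjusted p = 0.973). The 2 SBH/y groups did not overlap for 4.31% of all genes.

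Txnrd1 encodes the cytosolic thioredoxin reductase, which returns oxidised thioredoxin to its reduced form. Its group means lay closest together of the 6, at 9.13 ± 0.07 in SBH/y 1K, 9.23 ± 0.05 in SBH/y 2K, 9.15 ± 0.07 in SBN/y 1K and 9.11 ± 0.05 in SBN/y 2K (SD). Its brighter probe set passed in 0 of the 5 tests, at differences between -0.14 and 0.12. The 2 largest were the difference of the responses, -0.14 ± 0.07 (adjusted p = 0.619), and SBH/y minus SBN/y with 2 kidneys, 0.12 ± 0.05 (adjusted p = 0.155). Unadjusted p-values of 0.0479 for 1K minus 2K in SBH/y and 0.0223 for the strains with 2 kidneys were under 0.05.

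The dimmer Txnrd1 probe set was higher in SBH/y 2K, with values of 8.22 to 8.41, than in SBN/y 2K, with 8.04 to 8.19. That difference was 0.25 ± 0.08 (1.19-fold, adjusted p = 0.0407), so the probe sets disagree on the call but not on the direction.

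**Figure D2:**
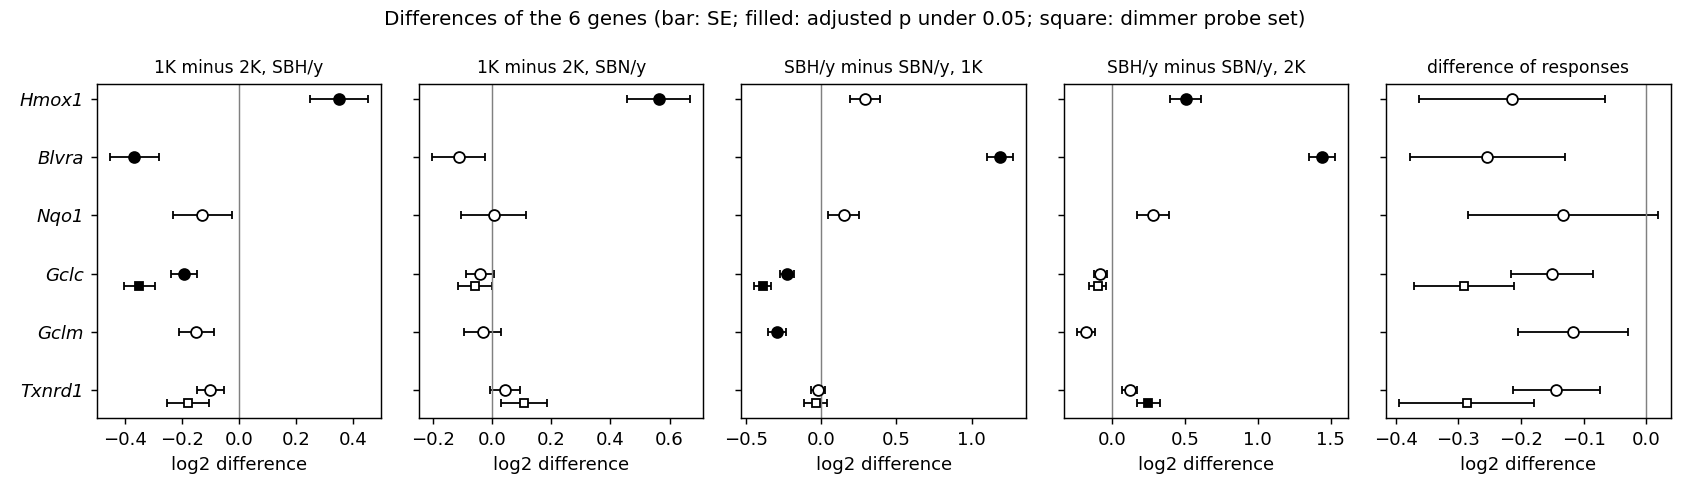
Log2 differences on the x axes for the 6 genes, listed down the page, in 5 panels for 1K minus 2K in SBH/y and in SBN/y, SBH/y minus SBN/y with 1 and with 2 kidneys, and the difference of the responses; bars are SEs and filled symbols passed an adjusted p of 0.05. Blvra stands out in both strain panels at 1.19 and 1.44, and squares mark the dimmer probe sets of Gclc and Txnrd1.

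Across the 6 genes the median 1K minus 2K difference was -0.14 in SBH/y, with 5 of 6 below 0, and -0.01 in SBN/y, against 0.00 for all genes in both comparisons. The median SBH/y minus SBN/y difference was 0.07 with 1 kidney and 0.20 with 2 kidneys, against 0.01 for all genes in both. In each strain comparison the 6 genes lay on both sides of 0. These comparisons share groups of arrays, so they are not independent of each other.

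Over the 23 arrays the Pearson r of Gclc with Gclm was 0.803, and 0.380 after group means were subtracted. Hmox1 ran opposite to Gclc (-0.726, and -0.343 within groups). Blvra and Gclc correlated at -0.454 over all arrays and at 0.643 within groups, so the strain difference and the spread inside groups ran in opposite directions. These are descriptions over arrays that share strain and kidney number.

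The genes most like each of the 6 over the 23 arrays were named by the highest Pearson r. This r includes the differences between groups, so a gene picked by it tends to share the group differences of its match. For Blvra they were Chd1l (0.969), Mxi1 (0.967) and Hrg (0.965), all of them higher in SBH/y with either kidney number. Hrg encodes the plasma heme-binding protein histidine-rich glycoprotein, and its strain difference was 1.36 with 2 kidneys and 0.83 with 1. For Hmox1 they were Kcnn4 (0.920), Chordc1 (0.841) and Tgif1 (0.839). After group means were subtracted, Kcnn4, a potassium channel gene with a dim probe set, still had an r of 0.895 with Hmox1. Within SBH/y the 1K minus 2K difference was 0.30 for Kcnn4 and 0.76 for Tgif1, a transcriptional corepressor gene.

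For Gclc they were Afm (0.930), Acss2 (0.905) and Slc7a13 (0.903), genes of a vitamin E-binding plasma protein, an acetyl-CoA synthetase and a proximal tubule amino acid transporter. All 3 passed as lower in SBH/y 1K than in SBH/y 2K, by -0.43, -0.19 and -0.29. The choice over all arrays favours such a shared difference, so it is not separate evidence. For Gclm they were Sh3yl1 (0.923), Riok3 (0.908) and Zfp950l1 (0.893). For Nqo1 they were Fam43a (0.793), Sytl2 (0.791) and Septin4 (0.761), and for Txnrd1, whose highest r was the lowest of the 6, Misp3 (0.719), Dnajc6 (0.718) and Mbnl2 (0.718). After group means were subtracted, the closest genes were Upb1 for Blvra (0.825), Slc8a1 for Nqo1 (0.855), Slco1a6 for Gclc (0.762), Efr3a for Gclm (0.912) and Ndrg1 for Txnrd1 (0.862). Each r of these like genes was picked as the highest over many genes, so part of its height comes from that choice. No r was tested.

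In RefSeq gene order the 3 nearest measured genes on either side of Blvra were Usp8, Trpm7, Sppl2a, Ncaph, Snrnp200 and Ciao1. In the limma test of the strains 0 of these 6 passed, with either kidney number. The smallest adjusted p was 0.133, for Usp8 with 2 kidneys. Since 17.7% of all genes passed with 1 kidney and 11% with 2, a count of 0 of 6 does not set the neighbours apart. The SBH/y minus SBN/y differences of these 6 ran from -0.18 to 0.16 with 2 kidneys and from -0.06 to 0.17 with 1. Of the 6 neighbours of Hmox1, Ces1e, a carboxylesterase gene, was lower in SBH/y (-2.70 with 1 kidney and -2.38 with 2), and the other 5 did not pass. Near Nqo1, Cyb5b, which encodes the mitochondrial outer membrane cytochrome b5, was lower in SBH/y (-0.70 with 1 kidney and -0.57 with 2), and Nfat5, an osmotic stress factor, was higher with 1 kidney (0.21). Beside Gclc, Gcm1 passed with 1 kidney (-0.46). Beside Gclm, Abca4 was lower in SBH/y (-0.40 with 1 kidney and -0.45 with 2), and F3, tissue factor, was higher with 2 kidneys (0.32). Beside Txnrd1, Hcfc2 was higher (0.35 and 0.34).

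**Figure D3:**
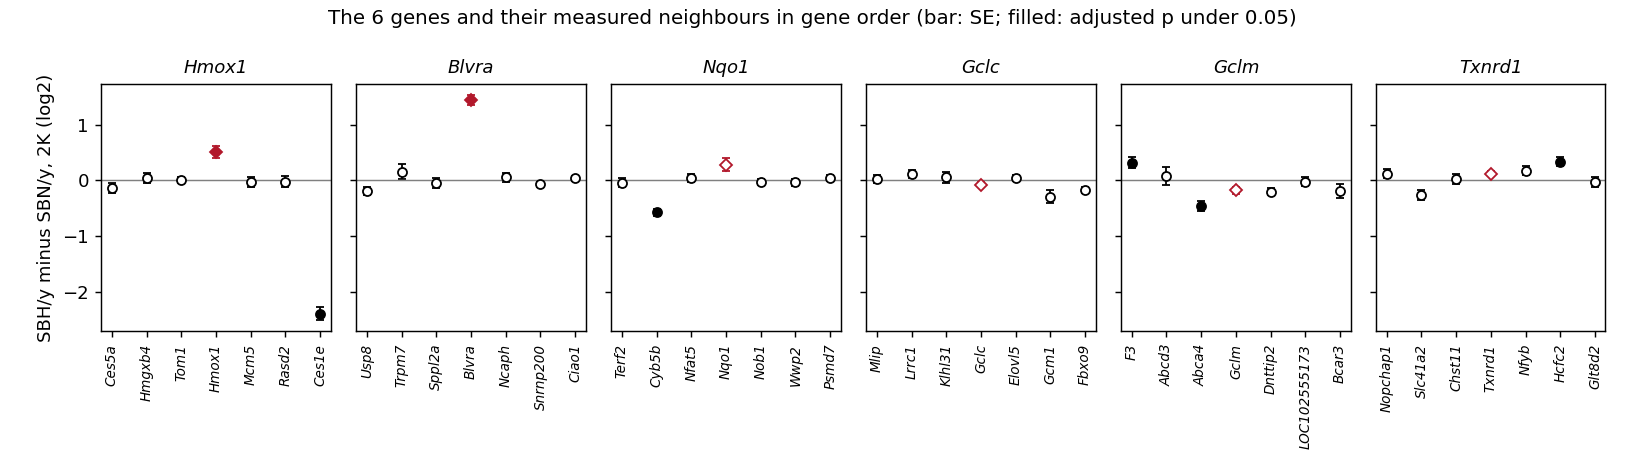
SBH/y minus SBN/y log2 difference with 2 kidneys on the y axis for each of the 6 genes (red diamonds) and the 3 nearest measured genes on either side in gene order (circles); bars are SEs and filled symbols passed. Blvra at 1.44 stands above 6 neighbours between -0.18 and 0.16, and Ces1e at -2.38 is the lowest point beside Hmox1.

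The heme pathway around Hmox1 and Blvra held strain differences in both directions. Of 14 other genes of heme degradation and handling, 1 passed as higher and 3 as lower in SBH/y with 1 kidney, and 0 and 3 with 2 kidneys. Among all genes, 10.2% passed as higher and 7.48% as lower with 1 kidney, and 5.5% and 5.54% with 2. So few genes do not set this list apart. Blvrb, the second biliverdin reductase, had the opposite direction to Blvra. Its values were 5.55 to 5.78 in SBH/y 1K, 5.42 to 5.65 in SBH/y 2K, 6.40 to 6.56 in SBN/y 1K and 6.22 to 6.56 in SBN/y 2K. The strain difference of Blvrb was -0.82 ± 0.06 with 1 kidney (adjusted p = 3.40e-11) and -0.85 ± 0.06 with 2 (adjusted p = 6.44e-11), without overlap.

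Abcg2, which exports porphyrins and urate, was lower in SBH/y by a difference of -0.61 ± 0.07 with 1 kidney and -0.38 ± 0.07 with 2. Por, the cytochrome P450 reductase that gives electrons to heme oxygenase, was lower in SBH/y as well, at -0.24 ± 0.06 with 1 kidney and -0.36 ± 0.07 with 2. Hmox2, the constitutive heme oxygenase, differed by -0.07 ± 0.05 and -0.09 ± 0.06 and did not pass.

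Of 11 measured genes of heme synthesis, 2 passed as higher and 5 as lower in SBH/y with 1 kidney, and 1 and 4 with 2 kidneys. The shares of all genes that passed, in either direction, were 17.7% with 1 kidney and 11% with 2. Alas1, the first enzyme of heme synthesis outside the red cell lineage, had values of 7.26 to 7.93 in SBH/y 1K, 7.28 to 7.72 in SBH/y 2K, 8.22 to 8.62 in SBN/y 1K and 8.19 to 8.29 in SBN/y 2K. The strain groups of Alas1 did not overlap, and the difference was -0.84 ± 0.10 with 1 kidney (adjusted p = 4.12e-07) and -0.77 ± 0.10 with 2 (adjusted p = 5.25e-06). Urod, a later enzyme of the same path, was lower too, at -0.24 ± 0.05 and -0.27 ± 0.05. Abcb10, a mitochondrial transporter of heme-making cells, was higher in SBH/y by 0.79 ± 0.07 and 0.70 ± 0.07.

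For 1 kidney against 2 in SBH/y, where 7.16% of all genes passed, limma called 0 of 11 genes of heme synthesis (1 at an unadjusted p under 0.05) and 1 of the 14 of heme degradation and handling. That gene, Hebp1, which encodes a heme-binding protein, was higher with 1 kidney by 0.32 ± 0.06 (adjusted p = 0.000611). In SBN/y, where 0.253% of all genes passed, limma called 0 of either list, with 1 and 2 genes at an unadjusted p under 0.05. Counts this small do not set the lists apart from all genes. The median 1K minus 2K difference in SBH/y was 0.02 for synthesis and 0.07 for degradation and handling, against 0.00 for all genes.

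**Figure D4:**
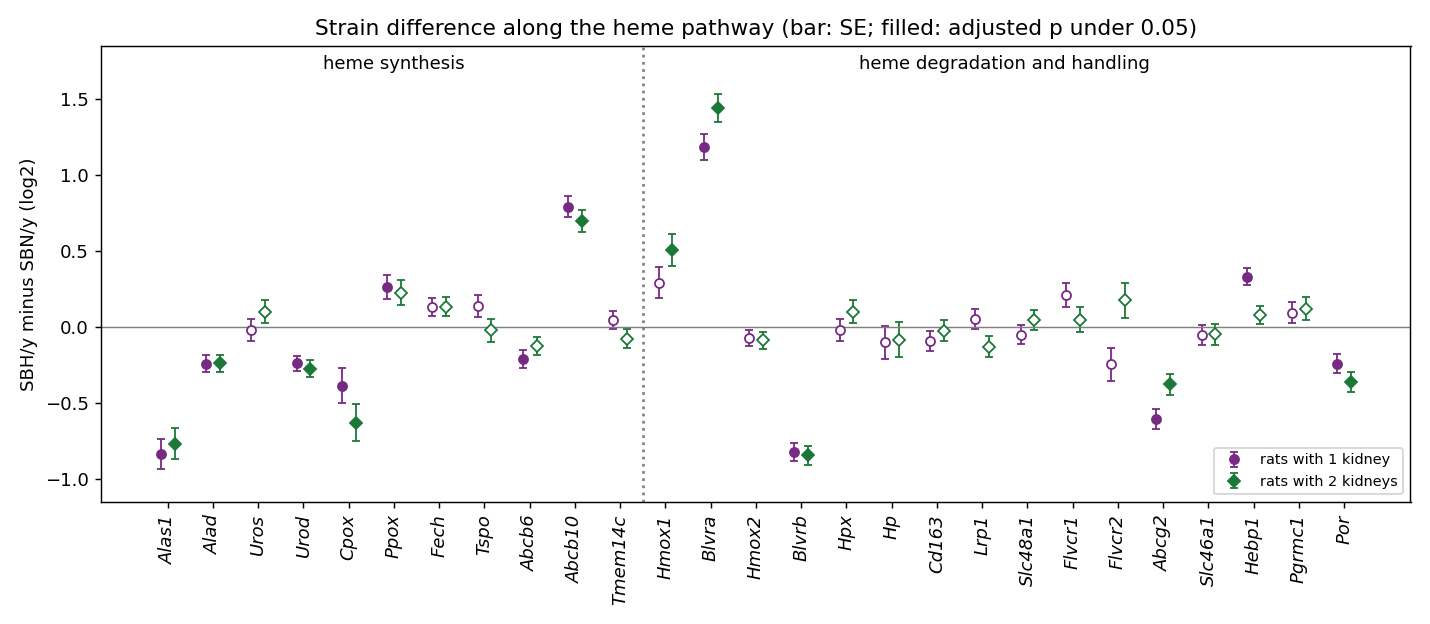
SBH/y minus SBN/y log2 difference on the y axis for genes of heme synthesis (left of the dotted line) and of heme degradation and handling (right of it), in rats with 1 kidney (circles) and with 2 (diamonds); bars are SEs and filled symbols passed. Blvra and Blvrb lie on opposite sides of 0, as do Abcb10 and Alas1.

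Heme oxygenase also frees iron. Of 14 measured genes of iron storage and transport, 4 passed as higher in SBH/y with 1 kidney than with 2, and 0 as lower. Among all genes, 4.76% passed as higher and 2.4% as lower. Cp and Heph, the copper ferroxidases that oxidise exported iron, had differences of 0.55 ± 0.09 (adjusted p = 0.000159) and 0.37 ± 0.08 (adjusted p = 0.00708). Slc40a1, the iron exporter ferroportin, had 0.22 ± 0.06 (adjusted p = 0.0278, and 0.103 with only the groups compared). The fourth gene, Slc39a14, a zinc and iron importer, had 0.24 ± 0.06 on its brightest probe set and 0.04 on another (adjusted p = 0.885). Its call on the brightest was lost with only the groups compared (adjusted p = 0.0683), with the GAPDH covariate (0.0994) and without the 2 arrays that stand apart (0.101). In SBN/y limma called 0 of the 14, with 3 at an unadjusted p under 0.05, and the difference between the strains' responses was called for 0 of the 14, with 2 at an unadjusted p under 0.05.

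Of 13 measured regulators of Nrf2, limma called 0 in SBN/y, with 3 at an unadjusted p under 0.05. Between the strains with 1 kidney, Nfe2l1 passed as higher and Maff as lower in SBH/y, while 17.7% of all genes passed. Maff lost its call with only the groups compared (adjusted p = 0.0812) and with repeated quantile normalization (0.0649). With 2 kidneys 0 of the 13 passed, against 11% of all genes. For 1 kidney against 2 in SBH/y, 1 of the 13 passed as higher, while 4.76% of all genes did. It was Pgam5, a phosphatase that binds Keap1. Its brighter probe set gave 0.33 ± 0.08 and its second 0.06. The call was lost with the GAPDH covariate (adjusted p = 0.0808) and without the 2 arrays that stand apart (0.0943). The factor itself, Nfe2l2, had values of 8.81 to 9.47 in SBH/y 1K, 8.88 to 9.13 in SBH/y 2K, 8.83 to 9.17 in SBN/y 1K and 8.73 to 8.81 in SBN/y 2K. Its SBN/y 2K arrays lay below all other arrays, barely so for the lowest SBH/y 1K array. Of all genes, 1.65% showed no overlap between SBN/y 1K and SBN/y 2K, and 9.72% none between the strains with 2 kidneys. The share for 1 group against all others was not computed. No test on Nfe2l2 passed: the 1K minus 2K difference was 0.15 ± 0.08 in SBH/y (adjusted p = 0.365) and 0.24 ± 0.08 in SBN/y (adjusted p = 0.356). Keap1, its anchor, differed by 0.06 ± 0.06 and 0.03 ± 0.06, and Bach1, a repressor of Hmox1, by -0.03 ± 0.07 and 0.12 ± 0.07. An RNA level does not show how much Nrf2 protein is in the nucleus.

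Of 27 other targets of Nrf2 measured, 2 passed as higher and 1 as lower in SBH/y 1K than in SBH/y 2K, while 4.76% of all genes passed as higher and 2.4% as lower. Gpx2, a glutathione peroxidase, had a difference of 0.54 ± 0.10 (adjusted p = 0.00143), Abcc2, an exporter of conjugates, 0.44 ± 0.11 (adjusted p = 0.0119, and 0.0804 with the GAPDH covariate), and Me1, malic enzyme, -0.34 ± 0.07 (adjusted p = 0.00280). In SBN/y limma called 0 of 27, with 5 at an unadjusted p under 0.05.

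Between strains with 1 kidney, 5 of the 27 were higher and 6 lower in SBH/y, and with 2 kidneys 4 and 3. The shares of all genes were 10.2% higher and 7.48% lower with 1 kidney, and 5.5% and 5.54% with 2. Gss, glutathione synthetase, which completes the path that Gclc and Gclm begin, was lower by a difference of -0.38 ± 0.05 with 1 kidney (adjusted p = 8.25e-06) and -0.37 ± 0.06 with 2 (adjusted p = 3.84e-05), without overlap. Ugdh, which makes UDP-glucuronic acid for conjugation, was lower by -0.43 ± 0.06 and -0.23 ± 0.07. Gstm1, a glutathione transferase, was higher in SBH/y, at 0.36 ± 0.07 with 1 kidney and 0.43 ± 0.07 with 2, and Gpx2, Abcc2 and Ephx1 also passed as higher in both comparisons. The call of Abcc2 with 2 kidneys was lost with the GAPDH covariate (adjusted p = 0.104). The median over the list was 0.00 with 1 kidney and -0.01 with 2, against 0.01 for all genes in both.

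Of 16 genes of glutathione turnover, 1 passed as higher and 2 as lower in SBH/y 1K than in SBH/y 2K. Among all genes, 4.76% passed as higher and 2.4% as lower. Glrx, glutaredoxin, had a difference of 0.49 ± 0.08, Cth, which makes cysteine, -0.26 ± 0.07, and Anpep, a peptidase of the brush border, -0.20 ± 0.05. The calls of Cth and Anpep were lost with only the groups compared (adjusted p = 0.0600 and 0.0629), and that of Cth also with the GAPDH covariate (0.129). In SBN/y limma called 0 of the 16, with 0 at an unadjusted p under 0.05. Of 15 genes of the thioredoxin system, 1 passed in SBH/y, Msra, a methionine sulfoxide reductase that thioredoxin serves (-0.20 ± 0.06, adjusted p = 0.0324). Msra lost this call with only the groups compared (adjusted p = 0.115), with the GAPDH covariate (0.128) and without the 2 arrays that stand apart (0.0656). Between the strains with 1 kidney, 2 genes of glutathione turnover passed as higher and 4 as lower in SBH/y, among them Glrx at 0.67 ± 0.08 and Ggct, a cyclotransferase, at -0.39 ± 0.09. In the thioredoxin system 2 passed as higher and 4 as lower, among them the peroxiredoxin gene Prdx4 at 0.39 ± 0.06 and Msra at -0.77 ± 0.06. With 2 kidneys, 0 passed as higher in either list and 1 as lower in each, Gss and Msra (-0.62 ± 0.06). Between the strains, 17.7% of all genes passed with 1 kidney and 11% with 2.

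**Figure D5:**
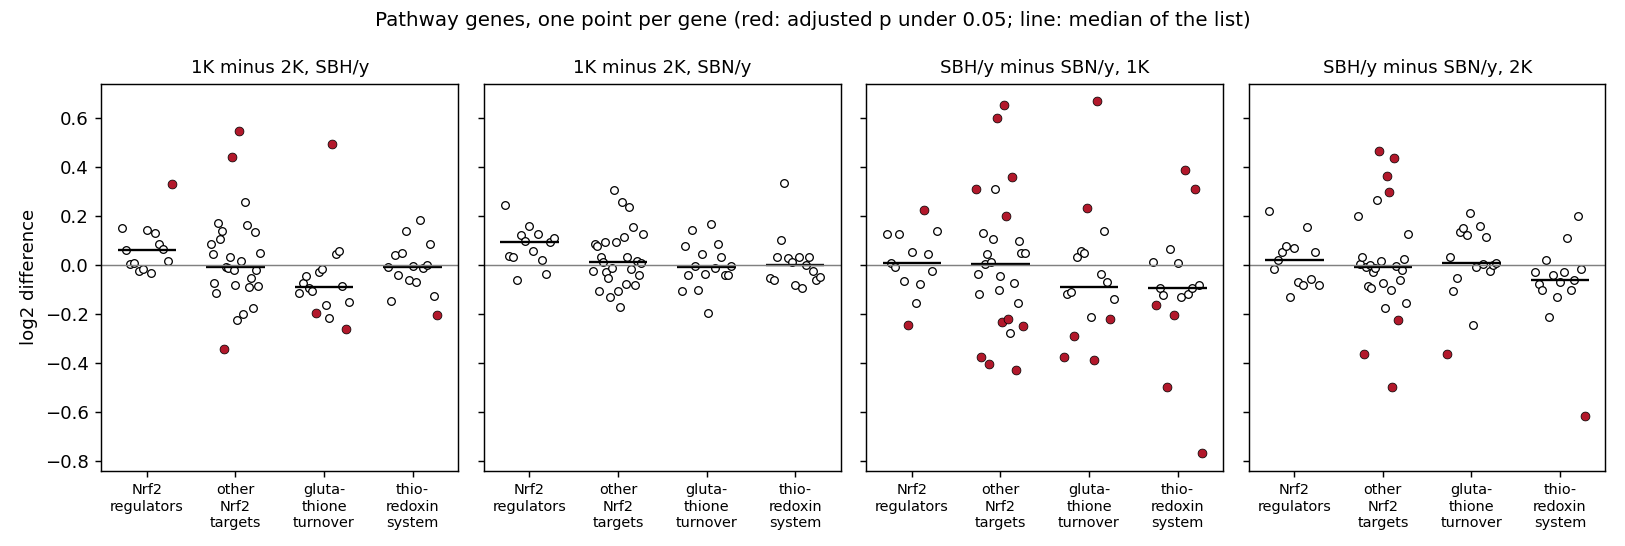
Log2 differences on the y axes, 1 point per gene, for Nrf2 regulators, other Nrf2 targets, genes of glutathione turnover and the thioredoxin system, in 4 comparisons; red points passed an adjusted p of 0.05 and lines are list medians. Points that passed lie on both sides of 0 in SBH/y, and no point is red for 1K minus 2K in SBN/y.

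Some markers of other cell types and injury genes also differed between the groups. For the counts below, 7.16% of all genes passed for 1K minus 2K in SBH/y and 0.253% in SBN/y. Between the strains, 17.7% of all genes passed with 1 kidney and 11% with 2, and 0.408% passed for the difference of the responses. Of 17 macrophage markers, 13 passed as higher in SBH/y 1K than in SBH/y 2K and 0 as lower, while in SBN/y limma called 0, with 4 at an unadjusted p under 0.05. Between the strains, 12 passed as higher and 1 as lower in SBH/y with 1 kidney, and 6 and 1 with 2. The mean of the 17 per array was 6.10 to 6.54 in SBH/y 1K, 5.60 to 5.72 in SBH/y 2K, 5.59 to 5.91 in SBN/y 1K and 5.46 to 5.53 in SBN/y 2K. Of the 17, Cd163, Itgam, Mrc1 and Fcgr2b lay under the median probe set. Macrophages express Hmox1, and the part of these cells in its values was not tested. In whole kidney, fewer or more cells of a type and a change of RNA per cell cannot be told apart.

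Of 16 genes of tubular injury, 13 passed as higher in SBH/y 1K than in SBH/y 2K, and 2 in SBN/y, of which Cdkn1a lost its call with only the groups compared (adjusted p = 0.0605) and with the GAPDH covariate (0.129). Between the strains, 15 of the 16 passed as higher in SBH/y with 1 kidney and 3 with 2, and 9 passed as higher for the difference of the responses. With 2 kidneys, Timp1 lost its call with the replicate block (adjusted p = 0.0866), the GAPDH covariate (0.0793) and without the 2 arrays that stand apart (0.107). The mean of the 16 injury genes per array was 7.72 to 8.30 in SBH/y 1K, 7.07 to 7.19 in SBH/y 2K, 7.07 to 7.21 in SBN/y 1K and 6.93 to 6.98 in SBN/y 2K. The lowest group was thus the same as for Hmox1 and the highest the same as the lowest for Gclc, and the relation was not tested. Of 16 proximal tubule markers, limma called 0 in either strain, with 1 in SBH/y and 0 in SBN/y at an unadjusted p under 0.05. With 7.16% of all genes called in SBH/y and 0.253% in SBN/y, this count does not set the markers apart. The means of the 16, given above, overlapped between SBH/y 1K and SBH/y 2K. The part of tubule cells in the values of Gclc and Blvra was not tested. Of other markers, 5 of 10 for lymphocytes passed as higher in SBH/y 1K than in SBH/y 2K, and 4 of 10 for other kidney cells and 1 of 7 for fat as lower. With only the groups compared, Kdr (adjusted p = 0.0504) and Atp6v1b1 (0.0774) of the kidney cell markers lost their calls. The fat marker, Plin1, lost its call in 4 settings, at an adjusted p between 0.0588 and 0.183. In SBN/y limma called 0 of these 3 lists, with 1, 2 and 1 at an unadjusted p under 0.05.

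Red blood cells bring heme and their own heme enzymes. Of 9 measured red cell markers, 6 lay under the median probe set, and their mean per array was 4.93 to 5.18 in SBH/y 1K, 5.02 to 5.25 in SBH/y 2K, 5.20 to 5.32 in SBN/y 1K and 5.17 to 5.34 in SBN/y 2K. Of the 9, 3 passed as lower in SBH/y than in SBN/y with 1 kidney and 2 with 2 kidneys, the same direction as Alas1 and Blvrb. Blvrb is abundant in red cells, and their part in its values was not tested. Of 16 targets of the hypoxia factor HIF, a second set of genes known to include Hmox1, 1 passed as lower in SBH/y 1K than in SBH/y 2K. In SBN/y 1 passed as higher, P4ha1, a collagen prolyl hydroxylase (0.46 ± 0.09, adjusted p = 0.0302). Its call was lost with only the groups compared (adjusted p = 0.0771), the replicate block (0.0513) and the GAPDH covariate (0.0803). Between the strains, 2 of the 16 HIF targets passed as higher and 3 as lower in SBH/y with 1 kidney. With 2 kidneys 3 passed as higher and 4 as lower. Among all genes, 17.7% passed with 1 kidney and 11% with 2.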

How the data were processed

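RNA of 23 kidney samples from male rats was measured on Affymetrix arrays, 1 per sample. Per the submitters' processing notes, the authors used RMA and GCOS (versions not given in the sources used here), and the deposited table holds log2 values. RMA hides any change in total mRNA. Whether the strains differ in sequence under the probes of any gene was not tested. The labels do not say that replicates are separate animals, so p-values measure the spread between samples. The number of arrays limits the precision, and batches of arrays were not analysed here.

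Of 31099 probe sets, 57 controls were left out and 31042 tested; 20826 had 1 gene symbol, 436 several and 9780 none, per the array's annotation table, and 20758 matched a RefSeq GRCr8 gene, used for names and gene order. The test was 1 limma fit (limma 3.58.1, R 4.3.3) with 4 group means, two-sided, adjusted by Benjamini-Hochberg over all 31042 probe sets, threshold 0.05. Errors beside differences are SEs of this fit and those beside means are SDs.

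The 6 genes and all gene lists were chosen with earlier results of these data known. Up to 4 genes with the smallest p past the threshold were named from each list and comparison, with 3 genes by likeness and 3 neighbours on either side of each of the 6. Nfe2l2, Keap1, Bach1 and Hmox2 were named for their roles, after their values were seen. Alternatives were a second quantile normalization, removal of dim probe sets, trended robust variance, a replicate block, a GAPDH covariate, fits on the compared groups alone, p adjusted over 1 probe set per gene, another probe set where there was one, and omission of 2 arrays that stand apart or of each array.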

Additional observations from a re-analysis of the deposited data

Results flagged for a closer look

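Txnrd1 (brighter probe set) had a value of 9.01 in SBN/y 1K replicate 4, far below the other 5 arrays of that group, which lay between 9.16 and 9.20. The gap to its nearest neighbour was 0.810 of the group's range, above Dixon's critical value of 0.625 for 6 samples. It was the only such array among 32 groups of values examined (8 probe sets in 4 groups), and chance flags about 1 group in 20.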

How the results depend on the processing

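The limits below come from 8 alternative settings, the omission of 2 arrays that stand apart, and fits that left out each of the 23 arrays. The GAPDH covariate left 1 of the 6 genes called for uninephrectomy in SBH/y, against 3, and 0 in SBN/y, against 1. In SBN/y 0 were called without dim probe sets, a filter that removes Hmox1, and 57 genes were called in all, against 36. The difference of the responses was called for 91 genes with trended robust variance and 94 with 1 probe set per gene, against 58. With 1 array left out, genes called ranged from 714 to 1135 (uninephrectomy in SBH/y), 15 to 50 (in SBN/y, lowest without SBN/y 2K replicate 3), 2156 to 2609 (strains with 1 kidney), 1326 to 1634 (with 2 kidneys) and 40 to 119 (difference of the responses, highest without SBH/y 1K replicate 3), and the genes called among the 6 ranged from 2 to 3, 0 to 1, 3 to 5, 2 to 3 and 0 to 0. Nqo1 in SBN/y, at 0.01, turned to -0.0183 with the replicate block, -0.121 with the covariate and ranged from -0.0255 to 0.0352 with 1 array left out. Gclm in SBN/y ranged from -0.0811 to 0.0348 and Txnrd1 between strains with 1 kidney from -0.0490 to 0.0019 with 1 array left out. Hmox1 between strains with 1 kidney passed with only the groups compared (adjusted p = 0.0399), 1 probe set per gene (0.0446), the replicate block (0.0412) and without the 2 arrays that stand apart (0.0380). It also passed in 5 fits with 1 array left out, SBN/y 2K replicate 2, SBN/y 1K replicate 1, SBH/y 2K replicate 3 or 4, or SBH/y 1K replicate 3. Nqo1 with 2 kidneys passed with only the groups compared (0.0200), and Gclm with 2 kidneys without dim probe sets (0.0494) and with trended variance (0.0284). The cause of these changes was not tested. Replicate numbers were not seen to pair the samples. The median correlation was 0.036 over 33 same-number pairs (7 over 0.1) and -0.009 over 165 different-number pairs (29 over 0.1). Weak correlations cannot exclude a pairing. The replicate block called 976, 31, 2457, 1498 and 51 genes, against 1018, 36, 2516, 1569 and 58.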
